A study of Drosophila melanogaster with 2 samples.

Results

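The epidermal growth factor (EGF) receptor and MAP kinase genes are 10 genes of 1 signalling route in Drosophila melanogaster: spi, Egfr, Ras85D, Raf, Dsor1, rl, pnt, aop, sty and RapGAP1. They were chosen by name, with earlier results of these peak lists known, and are 10 of 13945 protein-coding genes on the 6 chromosome arms that the lists name. The data are chromatin immunoprecipitation and sequencing (ChIP-seq) peaks of CG12744, assayed as a transcription factor, from whole embryos 0 to 24 h old with males and females mixed. The line carries CG12744 with a C-terminal GFP tag, and an antibody to GFP was used. There was 1 group of 2 biological replicates, numbered 2 and 4, with no other genotype, treatment or age. Embryos were assayed whole, so the peaks do not say in which cells, or at which hour of development, a gene was bound. A peak was given to a gene when its summit, the highest point of the peak, lay inside the gene or within 2000 bp of it.

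In the fly embryo this route passes signals from the cell surface to the nucleus. The secreted ligand Spitz binds the EGF receptor, which acts through the small GTPase Ras85D on a chain of kinases, Raf, Dsor1 and Rolled (the product of rl). Rolled phosphorylates a pair of Ets-domain transcription factors, the activator Pointed and the repressor Anterior open, also called Yan, and Sprouty (sty) damps the signal from outside the chain. The route is known for its part in patterning the embryonic ectoderm, trachea, muscle and nervous system. RapGAP1 switches off Rap1, a small GTPase related to Ras.

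Peaks above the authors' reproducibility threshold were present at 8 of the 10 genes and absent at the kinase genes Dsor1 and rl. The share of all protein-coding genes with such a peak was 25.9%. The 8 genes held 28 of the 2758 thresholded peaks, and 21 of the 28 were at Raf (8), RapGAP1 (7) and aop (6). The other peaks were 3 at pnt and 1 each at spi, Egfr, Ras85D and sty. The genes were proposed with these peaks in view, so their counts are a description. Most are long genes, and longer genes were more often given a peak: the share was 21.4% for genes under 5 kb (here Ras85D and Dsor1), 36.7% from 5 to 20 kb (spi), 43.1% from 20 to 50 kb (Egfr, Raf, aop and sty) and 49.8% from 50 kb (rl, pnt and RapGAP1). Beside these counts, 1.71% of all protein-coding genes had 3 or more peaks, 0.129% had 6 or more and 0.0574% had 8 or more. Among genes of 20 kb or more these shares were 12%, 1.38% and 0.79%. By number of peaks Raf ranked 4, RapGAP1 ranked 9 and aop ranked 11 of 13945 genes, and each of these ranks was shared.

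**Figure D1:**
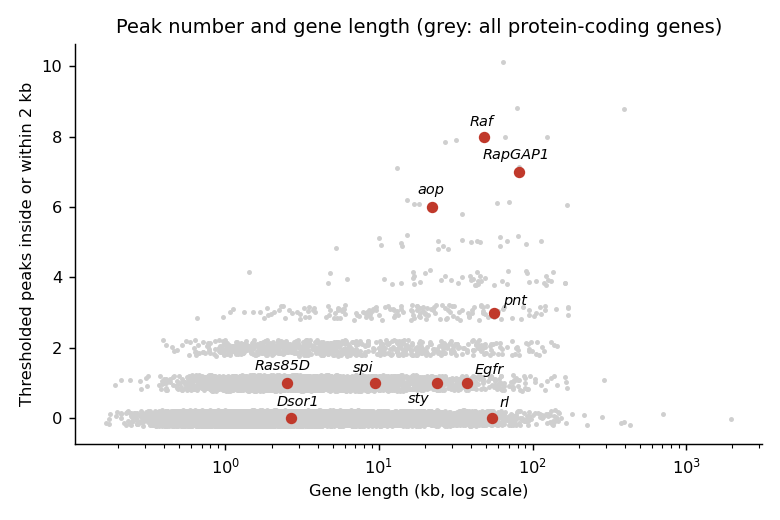
Thresholded peaks inside or within 2 kb of each protein-coding gene (vertical axis) against gene length in kb (horizontal axis, log scale), with the 10 genes in red and all 13945 genes in grey, moved slightly up or down at random so that they can be seen apart. Raf, RapGAP1 and aop, with 8, 7 and 6 peaks, lie near the top of the range, while rl has 0 peaks at a length of 54.5 kb.

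The ligand gene spi (FBgn0005672) had a single high peak at an internal start site. The gene spans 19567900 to 19577315 on the minus strand of 2L (dm6 build) and has 3 annotated start sites. The summit, at 19575816 in an intron, lay 229 bp upstream of the middle start site. Its deposited signal, a value of the authors' peak caller whose scale is not stated, was 300 in the thresholded list, which is rank 122. The list of replicate 2 gave it a signal of 148 (rank 151) and that of replicate 4 a signal of 145 (rank 115), so it stood high in both. The next peak of the pooled list at spi, which did not reach the threshold, had a signal of 63.3 (rank 3190) and was 250 bp from another spi start site, on its upstream side. The bases around the high summit are shown because it is the strongest peak at any ligand gene counted here. In this and all sequences below, letters are of the plus strand, 5′ to 3′, from the RefSeq Release 6 genome, and capitals mark CACTG or GAGAG on either strand (CAGTG and CTCTC when read on the plus strand). The spi window holds neither.
spi peak 1, chr2L:19575716-19575915: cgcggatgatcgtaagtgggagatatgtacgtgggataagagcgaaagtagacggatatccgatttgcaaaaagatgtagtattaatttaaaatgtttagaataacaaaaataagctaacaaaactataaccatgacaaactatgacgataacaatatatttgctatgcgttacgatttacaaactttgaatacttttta

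The receptor gene Egfr (FBgn0003731, 2R, 21522420 to 21559977, plus strand) had 1 weak peak on which the replicates differed. The summit, at 21549180, lay in an intron of Egfr 2537 bp downstream of the nearer of its 2 start sites. Its signal was 70.2, rank 2631 of the 2758 thresholded peaks, where the lowest signal was 68.4. In replicate 4 this summit was the highest of the gene, with a signal of 39 and rank 1928. In replicate 2 it had a signal of 27.2 and rank 5590, and the highest peak of the gene lay elsewhere, with its summit at 21535649 (signal 44.6, rank 2162). The pooled list held a pair of peaks near that second place, at 21535517 (signal 61.1, rank 3409) and 21535719 (signal 35.3, rank 8990), both below the threshold.

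**Figure D2:**
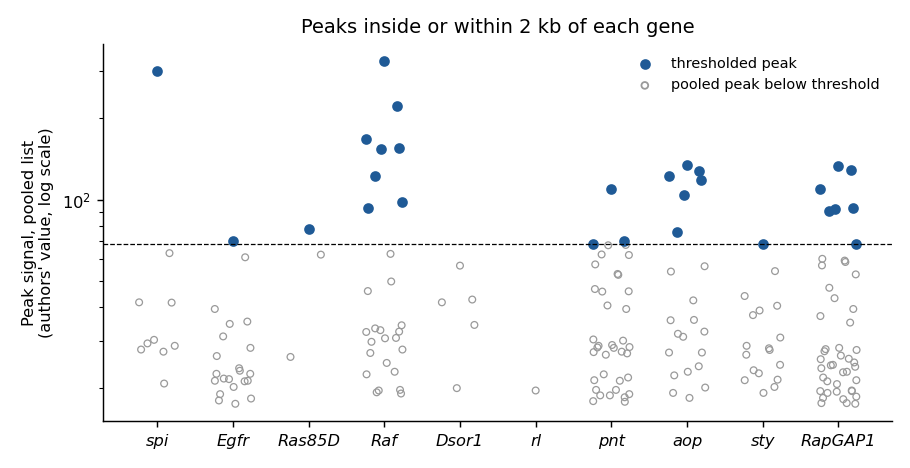
Signal of every peak of the pooled list inside or within 2 kb of each gene, on a log scale, with thresholded peaks filled and the others hollow; the dashed line is the lowest thresholded signal, 68.4. The highest peaks at spi (300) and Raf (326) stand well above the line, those at Egfr (70.2) and sty (68.5) lie next to it, and rl has a single peak of 19.6.

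Ras85D, the Ras gene of this route, is short and had 1 peak in the space between it and a neighbour. The gene (FBgn0003205) spans 9510561 to 9513067 on the minus strand of 3R. The summit, at 9513252, lay between the genes, 185 bp upstream of the start site of Ras85D and 75 bp upstream of that of Rlb1, so the peak cannot be given to either gene alone. Its signal was 78.1 (rank 2161). Replicate 2 gave a signal of 33 (rank 3953) and replicate 4 a signal of 47.5 (rank 1331), so it was among the 2758 highest peaks of replicate 4 and not of replicate 2. At the other end of the gene the pooled list had a peak of 62.5 (rank 3273) that lay 93 bp upstream of the start site of rump, an RNA-binding protein gene, and below the threshold. The window of the thresholded peak, shortened to leave out annotated untranslated bases, holds GAGAG 1 time and no CACTG; the whole window has 1 CACTG, 95 bp from the summit.
Ras85D peak 1, chr3R:9513152-9513326: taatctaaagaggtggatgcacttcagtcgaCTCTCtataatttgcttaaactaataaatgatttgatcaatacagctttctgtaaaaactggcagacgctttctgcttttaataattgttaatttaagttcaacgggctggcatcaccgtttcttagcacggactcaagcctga

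Raf, the first kinase of the chain and shared by several receptor tyrosine kinases, carried a row of peaks around its distal start site. The gene (FBgn0003079) spans 2295466 to 2343870 on the plus strand of X and has 2 start sites. Of its 8 thresholded summits, 7 lay within 10.4 kb, from 2293701 to 2304089, with 1376 to 2651 bp between neighbours (median 1538 bp). The highest of all 28 peaks was among them, with its summit at 2297728, 2262 bp downstream of the distal start site. Its signal was 326 (rank 99), and the replicates gave 156 (replicate 2, rank 130) and 169 (replicate 4, rank 76). The next, at 2296352, lay in the 5′ untranslated part of the second exon of the long transcript (signal 222, rank 229, with ranks 396 and 152 in replicates 2 and 4). Then followed the summits at 2300684 (signal 167), 2304089 (154), 2302262 (122) and 2299186 (98.1). These 4 and the highest summit lay in intron 2 of the long transcript, which is 43.6 kb long (2296354 to 2339990), as did the most distant summit at 2329544 (signal 93.3). That last summit was 10754 bp upstream of the proximal Raf start site and 615 bp upstream of the start of lncRNA:CR33218. The remaining summit, at 2293701, was not inside Raf: it lay 1765 bp upstream of the distal start site and 290 bp upstream of the start site of CG2865 (signal 155, rank 549, with ranks 363 and 1022 in replicates 2 and 4). No Raf summit lay within 500 bp of a Raf start site.

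All 8 Raf peaks were among the 2758 highest of both replicates, with ranks of 130 to 1839 in replicate 2 and 76 to 1754 in replicate 4. Below the threshold, Raf had 20 more peaks in the pooled list, the highest with a signal of 62.9 (rank 3219). The windows of the highest summit and of the summit at 2302262 are shown because the GAGAG letters cluster in the second: it holds 9 overlapping matches within 100 bp of the summit, the most of the 28 windows. The printed stretch, 100 bp long, holds 7 of them.
Raf peak 1, chrX:2297628-2297827: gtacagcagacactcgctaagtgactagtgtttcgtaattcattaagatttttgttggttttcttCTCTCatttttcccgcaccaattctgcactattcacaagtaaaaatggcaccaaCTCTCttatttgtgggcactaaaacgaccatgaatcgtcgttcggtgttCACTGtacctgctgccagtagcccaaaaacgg
Raf peak 6, chrX:2302212-2302311: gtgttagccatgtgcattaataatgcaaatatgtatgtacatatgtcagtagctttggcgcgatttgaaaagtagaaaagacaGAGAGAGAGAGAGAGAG

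**Figure D3:**
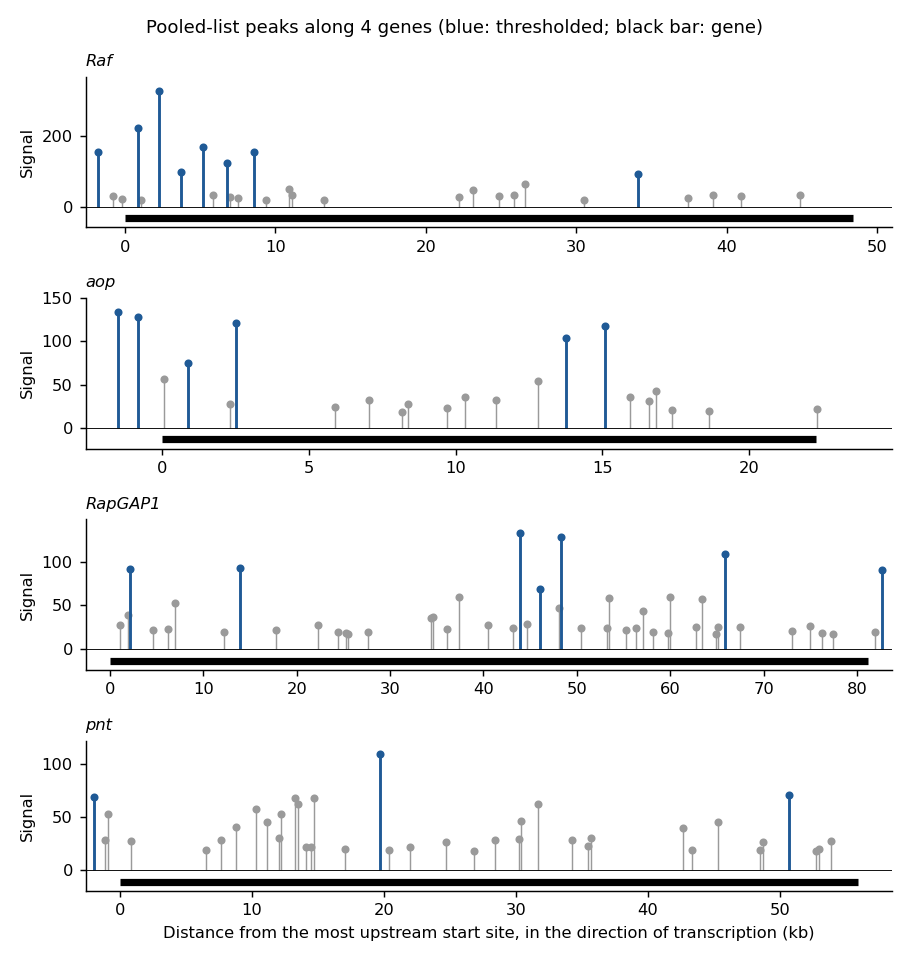
Pooled-list peaks along Raf, aop, RapGAP1 and pnt, as vertical lines whose height is the deposited signal, by distance in kb from the most upstream start site in the direction of transcription; blue lines are thresholded peaks, grey lines are not, and the black bar is the gene. At Raf, 7 of the 8 blue lines stand in the first 10.4 kb from left to right. Those at RapGAP1 and pnt are spread over the gene and a flank. The RapGAP1 summits at 7530717, 7532926 and 7535111 are 2209 and 2185 bp apart.

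The kinase genes downstream of Raf had no thresholded peak. Dsor1 (FBgn0010269, the MAP kinase kinase, X, 9247342 to 9250037, plus strand) had 5 peaks in the pooled list. The highest, with a signal of 56.9 (rank 3889), lay in an intron of a neighbour, 671 bp upstream of the start site of CG17754. It ranked 2281 in replicate 4, within its 2758 highest peaks, and 11566 in replicate 2. A peak at the start site of Dsor1 itself, 3 bp upstream, had a signal of 41.6 (rank 6755), with ranks 12599 and 4883 in replicates 2 and 4. The nearest thresholded summit lay 53501 bp from the gene.

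The MAP kinase gene rl (FBgn0003256, 2R, 1071462 to 1125927, plus strand) had 1 peak in the whole pooled list, although it is 54.5 kb long. The summit, 74 bp downstream of its start site, had a signal of 19.6 and rank 24936 of 30000. Replicate 4 had a summit within 100 bp of it (rank 13168) and replicate 2 had none. rl lies in the heterochromatin near the centromere, and the whole neighbourhood was nearly empty: from 500 kb before to 500 kb after the gene there were 0 thresholded and 4 pooled peaks, or 3.79 pooled peaks per Mb against 209 per Mb over the arm. The nearest thresholded summit was 4.89 Mb away. Whether reads could be placed in this region was not tested, and the lack of peaks at rl does not show a lack of binding.

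**Figure D4:**
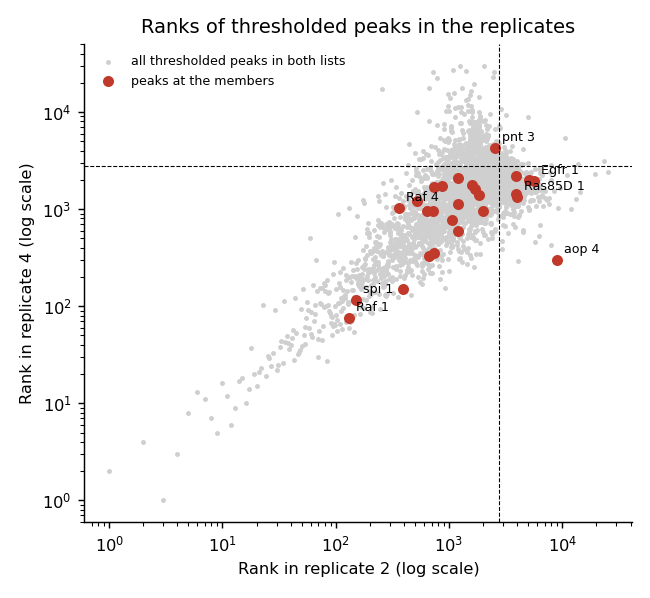
Rank of each thresholded peak in replicate 4 against its rank in replicate 2, both on log scales, for peaks with a summit within 100 bp in both lists; red points are peaks at the 10 genes, labelled by gene and by order of signal within the gene, grey points are all thresholded peaks, and the dashed lines are rank 2758. The highest peaks of Raf and spi are high in both replicates, while aop peak 4 is at rank 298 of replicate 4 and at rank 8929 of replicate 2.

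Among the nuclear effectors, the repressor gene aop had 6 thresholded peaks with signals up to 134 and the activator gene pnt had 3 with signals up to 109. The order of the counts was the other way round among the 2758 highest peaks of replicate 2 (aop 4, pnt 5) and in the pooled list (aop 22, pnt 38). These counts do not allow for length, which is 22.3 kb for aop and 55.9 kb for pnt. With flanks, aop had 2.28 thresholded peaks per 10 kb and pnt 0.5. The aop gene (FBgn0000097) spans 2156484 to 2178754 on the minus strand of 2L. Around its distal start site neighbouring thresholded summits were 669, 1709 and 1630 bp apart, and those upstream of the proximal one were 1334 bp apart. A pair lay upstream of the distal start site, 1490 bp (summit 2180244, signal 134) and 821 bp (2179575, signal 128) away. Another pair lay downstream of it, 2518 bp away in an intron (2176236, signal 122) and 888 bp away in the 5′ untranslated part of the first exon (2177866, signal 75.6). The last pair lay in an intron 2137 bp (2163664, signal 118) and 3471 bp (2164998, signal 104) upstream of the proximal start site. Among the 26 summits matched in both replicates, the ranks were farthest apart here: the summit at 2163664 was the highest aop peak of replicate 4 (signal 95.4, rank 298) and only rank 8929 of replicate 2 (signal 20.8). The highest aop peak of the thresholded list had ranks 644 and 946 in replicates 2 and 4. No aop summit lay within 500 bp of an aop start site in the thresholded list, although a peak below the threshold did, 74 bp downstream of the distal one (signal 56.6, rank 3946). The window of the third aop peak is shown beside that of the highest because its CACTG lies next to the summit, with its middle base 1 bp away. The summit at 2177866 had a CACTG centred on it, but lies in untranslated bases and is not shown.
aop peak 1, chr2L:2180144-2180343: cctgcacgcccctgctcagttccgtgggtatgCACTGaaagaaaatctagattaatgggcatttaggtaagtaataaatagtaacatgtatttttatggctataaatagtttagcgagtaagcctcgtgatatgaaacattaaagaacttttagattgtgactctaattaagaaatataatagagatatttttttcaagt
aop peak 3, chr2L:2176186-2176285: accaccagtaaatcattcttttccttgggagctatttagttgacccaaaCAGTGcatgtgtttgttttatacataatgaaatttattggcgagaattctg

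The activator gene pnt (FBgn0003118, 3R, 23290231 to 23346167, minus strand) had 3 thresholded peaks. The highest, at 23326483, lay deep in an intron, 12168 bp upstream of the nearest pnt start site. Its signal was 109 (rank 1156), with ranks 1191 and 1122 in replicates 2 and 4, so the replicates placed it alike. The second, at 23295499, lay 261 bp upstream of the most downstream of the 3 pnt start sites (signal 70.3, rank 2626). It was rank 1310 in replicate 2, while the nearest summit of replicate 4 was 1931 bp away (rank 8111). The third, at 23348126, lay just inside the 2000 bp limit, 1959 bp from pnt and 2 bp upstream of PolE1, which encodes the catalytic subunit of DNA polymerase epsilon (signal 68.5, rank 2746). Another pair of pnt peaks missed the threshold narrowly, with signals of 67.9 (rank 2792) and 67.7 (rank 2806). With 38 peaks, pnt was second to RapGAP1 in the pooled list. The window of the second peak is shown because it holds GAGAG 5 times within 100 bp of the summit, the most after the Raf window.
pnt peak 1, chr3R:23326383-23326582: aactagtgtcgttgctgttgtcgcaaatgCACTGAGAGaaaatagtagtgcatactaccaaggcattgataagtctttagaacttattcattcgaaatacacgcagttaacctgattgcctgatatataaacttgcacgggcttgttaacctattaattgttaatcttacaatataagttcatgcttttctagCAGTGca
pnt peak 2, chr3R:23295449-23295548: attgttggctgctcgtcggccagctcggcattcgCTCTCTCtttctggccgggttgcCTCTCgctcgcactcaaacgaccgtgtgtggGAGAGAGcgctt

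The feedback inhibitor gene sty (FBgn0014388, 3L, 3401153 to 3424935, minus strand) had 1 peak at the edge of the threshold. The summit, at 3418927 in an intron, lay 966 bp upstream of the proximal start site, with a signal of 68.5 (rank 2744). It had a signal of 33.1 (rank 3914) in replicate 2 and 36.6 (rank 2214) in replicate 4. In neither replicate was it the highest peak of the gene: in replicate 2 that was a summit at 3417947 (rank 3146), close to the proximal start site, and in replicate 4 a summit at 3411953 (rank 1995). The window holds neither set of letters.
sty peak 1, chr3L:3418827-3419026: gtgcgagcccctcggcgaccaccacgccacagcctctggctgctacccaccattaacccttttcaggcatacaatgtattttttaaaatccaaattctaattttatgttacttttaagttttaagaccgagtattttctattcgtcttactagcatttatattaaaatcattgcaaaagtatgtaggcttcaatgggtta

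RapGAP1 (FBgn0264895), the longest of the 10 genes at 81.2 kb, spans 7497805 to 7578980 on the minus strand of 2L. It had 7 thresholded peaks spread over the gene and its 3′ flank. Of these, 2 lay just upstream of internal start sites, 143 bp away at 7530717 (signal 129) and 190 bp away at 7576797 (signal 92.4). The highest, at 7535111, was intronic and 4537 bp upstream of a start site (signal 133, rank 759, with ranks 519 and 1199 in replicates 2 and 4). The summit at 7576797 had rank 672 in replicate 4, the highest of the gene there. In replicate 2 the nearest summit was 102 bp away, 2 bp beyond the limit for a match, with rank 6218. Other intronic summits were at 7513078 (signal 109), 7565066 (92.7) and 7532926 (68.5). The summit at 7532926 lay between those at 7530717 and 7535111, 2209 and 2185 bp from them. The last peak, at 7496339, lay 1466 bp beyond the 3′ end of RapGAP1 and 32 bp upstream of the start site of the neighbour Ziz (signal 90.9). The window at 7513078 is shown beside that of the highest peak because it holds CACTG 2 times, with the nearer copy 10 bp from the summit, while the window of the highest holds neither CACTG nor GAGAG.
RapGAP1 peak 1, chr2L:7535011-7535210: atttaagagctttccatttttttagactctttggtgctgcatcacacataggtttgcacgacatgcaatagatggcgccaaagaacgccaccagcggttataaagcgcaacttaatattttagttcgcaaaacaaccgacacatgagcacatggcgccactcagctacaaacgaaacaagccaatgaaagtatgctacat
RapGAP1 peak 3, chr2L:7513028-7513127: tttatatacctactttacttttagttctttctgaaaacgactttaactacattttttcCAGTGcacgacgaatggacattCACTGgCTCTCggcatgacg

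Most of the 28 summits lay away from start sites. Only 8 (28.6%) were within 500 bp of any annotated start site, against 57.9% of all thresholded summits, and 20 lay 615 to 8623 bp away (median 2527 bp). Because summits inside long genes are counted, this share depends on gene length. At the 7 genes of 20 kb or more, 20 of 26 summits (76.9%) lay beyond 500 bp, against 61.4% of the 892 thresholded summits at all protein-coding genes of that length. Raf and aop held most of these 20: all aop summits lay beyond 500 bp, and all Raf summits except that near CG2865. At RapGAP1 the summits at 7530717, 7576797 and 7496339 lay within 500 bp, and at pnt those at 23295499 and 23348126. By annotation, 20 summits were in introns, 6 between genes, 2 in 5′ untranslated exons and 0 in coding exons. All 8 summits near a start site lay upstream of it, by 2 to 290 bp, and so did 80.1% of all thresholded summits within 500 bp of a start site. Of these, 5 lay near a start site of the gene itself, 143 to 261 bp upstream, and gave 4 of the 10 genes a promoter peak (spi, Ras85D, pnt and RapGAP1), where the share of all protein-coding genes was 14.4%. The other 3 lay at PolE1, CG2865 and Ziz. The Ras85D promoter peak also lay within 500 bp of the Rlb1 start site. That of pnt had no summit within 100 bp in replicate 4.

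The replicates shared 19 of the 28 summits (67.9%) among their 2758 highest peaks, and the share over all thresholded summits was 64.3%. Of the 28, 21 (75%) lay within 100 bp of one of the 2758 highest summits of replicate 2, against 81.9% of all thresholded summits. For replicate 4 the number was 26 (92.9%), against 79.6%. Among the 26 summits found in both whole lists, 17 (65.4%) ranked higher in replicate 4, and this was so for 49.6% of all thresholded summits. The median ranks of the 26 were close, 1194 in replicate 2 and 1160 in replicate 4. For all thresholded summits they were 1367 and 1390. The median signal of the 28 peaks in the thresholded list was 109, beside 99.1 for all thresholded peaks, and 16 of them were among its 1379 highest. With the 2758 highest peaks of replicate 2 alone, Ras85D and sty had 0 peaks, pnt 5 and aop 4. With those of replicate 4 alone, Dsor1 had 1 peak, and spi and sty had 2 each.

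Short sequences under the summits were counted for 7 motifs, each on both strands of 201 bp centred on the summit. CACTG, a short sequence found earlier to be more frequent under peaks of these lists, was within 100 bp of 16 of the 28 summits (57.1%). It was at 48.3% of all thresholded summits and at 34.7% of the 27242 pooled peaks below the threshold. Within 50 bp the order was the other way round, with CACTG at 21.4% of the 28 summits and 23.9% of all thresholded summits. Within 150 bp the shares were 85.7% and 61.2%. At Raf it was present within 100 bp at 2 of 8 peaks and at aop at 5 of 6. GAGAG, the core of sites of GAGA factor, a chromatin-opening protein of the fly, was at 14 of the 28 summits (50%), against 23.9% of all thresholded summits, 25.8% of the thresholded summits beyond 500 bp of a start site and 23.3% of pooled peaks below the threshold. It was at 5 of 8 Raf peaks and 4 of 6 aop peaks. The E-box CANNTG was at 57.1% against 61.4%. The Zelda site CAGGTAG was at 1 summit, in an intron of aop at 2164998 (3.57% against 0.943%). The longer CAACACTG, which contains CACTG, the Dref site TATCGATA and the Ets site CCGGAA were at 0 of 28 summits each. This would allow a share of up to 10.7% if the 28 summits were independent, which they are not. The same motifs were at 3.92%, 4.6% and 4.64% of all thresholded summits. Beyond 500 bp of a start site, where 20 of the 28 lay, they were at 0.947%, 0.43% and 3.61% of thresholded summits. Peaks of 1 gene are neighbours and not independent, and no test was made of these shares.

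Lists by role, 6 in all, held other genes of the route and other receptor tyrosine kinases with their ligands. They also held JNK and p38 branch kinases, listed together with Erk7. Of these 82 genes, 36 had a peak (43.9%, beside 25.9% of all protein-coding genes). Their median length is 7.5 kb, beside 2.2 kb for all protein-coding genes, and the share rises with length as given above. A promoter peak was present at 14 of the 82 (17.1%, beside 14.4%). The lists were chosen with earlier results of these data known and were not tested as sets.

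Among ligands and the proteins that release or antagonise them, 5 of 11 genes had a peak. The highest were in an intron of aos, which encodes Argos, a secreted inhibitor of EGF receptor signalling (signal 266, rank 159), and in an intron of S, which encodes Star, a carrier of Spitz (238, rank 199, of 5 peaks). The ligand genes vn (129) and Krn (120) followed, and the Krn summit lay 62 bp upstream of its start site, with those of CG7484 and Ndfip also within 500 bp. Of adaptors and receptor regulators, 5 of 9 had a peak. Shc, an adaptor gene, had the second highest peak of all these genes, 121 bp upstream of its start site, with a signal of 482 and rank 34 (ranks 39 and 36 in replicates 2 and 4), but the start site of Atat also lay within 500 bp. It was followed by drk, the Grb2 adaptor (194), dos (139) and ed (118), and the summit at dos lay 46 bp downstream of the start of RpL8. At drk, ed and vn the start site nearest the summit was also another gene's: mars (852 bp), asRNA:CR44984 (5057 bp) and mad2 (11157 bp).

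Of scaffolds and regulators of the cascade, 11 of 20 had a peak, led by RasGAP1, a GTPase-activating protein of Ras (258, rank 170). The scaffold gene cnk followed (255, rank 173). Its summit ranked 78 in replicate 4, had no summit within 100 bp in replicate 2, and lay 303 bp upstream of the start of l(2)k01209. The kinase gene Src64B (158) and wdb, a phosphatase subunit gene (105), came next, with summits 194 and 74 bp upstream of their own start sites. Among other receptor tyrosine kinases and their ligands, 7 of 17 had a peak, and the highest were at the ligand genes ths (141), Pvf1 (138, with the summit 143 bp upstream of htk), bnl (113) and jeb (109). Of nuclear effectors and targets, 7 of 17 had a peak, led by the corepressor gene gro (241, 175 bp upstream of a start site), ebi (202, with the start site of AP-2alpha also within 500 bp), edl, which encodes a regulator of Pointed and Yan (140), and the repressor gene cic (122). In the list of JNK and p38 branch kinases, which also holds Erk7, 1 of 8 genes had a peak. This was Mkk4, whose peak was the highest of all these genes (signal 504, rank 31) and lay 112 bp upstream of the start site of SLIRP2, with that of Mkk4 also within 500 bp.

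**Figure D5:**
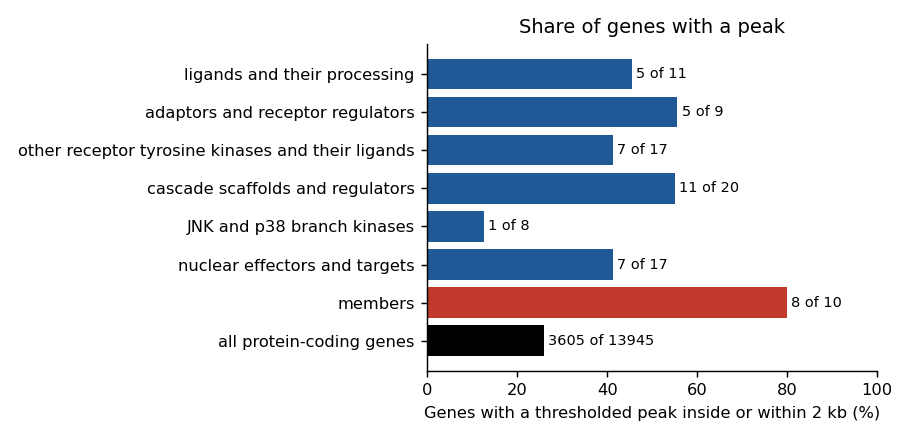
Share of genes with a thresholded peak inside or within 2 kb (horizontal axis, %), for 6 lists of other genes of the route and of related routes (blue), the 10 genes (red) and all protein-coding genes (black), with counts beside the bars. The blue shares run from 12.5% to 55.6%, and the 10 genes, which were chosen with these peaks in view, stand at 80%.

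At the limits of the rule, the outermost summits counted were those 1959 bp from pnt and 1765 bp from Raf, and the nearest summit not counted lay 2878 bp from Ras85D, at the start of mRpL47 (signal 97.5). The next were 4864 bp from sty (signal 109) and 5129 bp from spi, at the start of Hakai (signal 69). The thresholded peaks with the lowest signal here were at RapGAP1 (68.5, rank 2752), pnt (rank 2746) and sty (rank 2744), and the first below were the pnt pair named above.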

How the data were processed

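Peak lists of 2 biological replicates were used. Per the deposited text records, the replicate and pooled lists were made from alignments with a control, and the thresholded list by irreproducible discovery rate; the control was not used here. The signal is the authors' deposited peak signal, with no stated scale, used only within a list. Read depth is unknown, with aligner and caller not given in the sources used here. Lists for dm3 were left out, since the reference is dm6. The 4 dm6 lists (2758 or 30000 peaks) were joined to the Ensembl release 115 annotation of the same build, without transposable elements, with Python 3.11.15. Summits were matched between lists within 100 bp, and promoters reach 500 bp from a start site. Of 82 pathway symbols, 81 matched by symbol and 1 by RefSeq synonym. The members and lists were chosen with earlier results of these data known, and no test was made. Named genes are the members, up to 4 genes with the highest peak in each list, and neighbours of a member's peak. Sequences are those of each member's highest peak outside the arm not shown, with Raf peak 6, aop peak 3, pnt peak 2 and RapGAP1 peak 3 chosen after their values were seen. Counting was tested on simulated data. Alternatives were the 1379 highest peaks, each replicate alone, and other flanks, windows and match rules.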

Additional observations from a re-analysis of the deposited data

How the results depend on the processing

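No paired analysis was possible because there is 1 group. Of 41 alternative values of the main counts, 33 were within 1.5 times the reported count. These include motif counts of 0 that stayed at 0. Among the 1379 highest thresholded peaks, 5 of the 10 genes had a peak (15.1% of all protein-coding genes), with 16 peaks in all, and 2 genes had a promoter peak (7.72% of all). With a promoter window of 1000 bp, 7 genes had a promoter peak (16.5% of all). Without flanks, 22 of the 82 other genes had a peak (36 with flanks), and the share of all protein-coding genes fell from 25.9% to 8.23%. Within 50 bp of the summit, CACTG was at 6 of the 28 summits (21.4%, against 23.9% of all thresholded summits, the reverse of the order within 100 bp) and GAGAG at 8 (28.6% against 11.6%). Within 150 bp the Ets site was at 1 (3.57% against 6.74%), and CACTG, within 1.5 times its main count, at 24 (85.7% against 61.2%). These windows are shorter or longer by construction. Likewise, taking the 1379 highest peaks or no flanks can only lower a count, and a promoter window of 1000 bp can only raise it. With 1 replicate left out, the genes with a peak numbered 6 (without replicate 4, with 26.1% of all protein-coding genes) to 9 (without replicate 2, with 25.2%). Their peaks numbered 26 to 31, genes with a promoter peak 3 (13.7% to 14.6% of all), and other genes with a peak 34 to 37. Among the counts per gene, 14 of 60 moved by over 1.5 times. For those that moved with 1 replicate left out, the cause was not tested. Read depth is unknown.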
